A study of Homo sapiens with 10 samples.

Results

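Genes of the cornified envelope and its transglutaminases were followed in LoVo cells, a line established from a human colorectal adenocarcinoma. The genes are SPRR1A, SPRR1B, SPRR2A, SPRR3, IVL, TGM1, TGM2, ECM1 and A2ML1. Of these 9 genes, 8 had at least 1 probe set (a group of short probes for a transcript) annotated to them alone, against 19775 genes in the whole series. SPRR2A had no such probe set in the annotation used and has no value here. The 8 genes had 14 probe sets of the 54675 on the array, and the probe set with the highest mean log2 signal over all 10 arrays stood for its gene.

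The cornified envelope is the tough protein shell that replaces the plasma membrane of dying keratinocytes in the skin and other stratified epithelia. Its precursors, among them involucrin (IVL) and the small proline-rich proteins (SPRR), are rich in glutamine and lysine, and transglutaminases join these residues into bonds that detergents and most proteases cannot break. The colon is lined by a simple columnar epithelium that forms no such envelope.

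ADMA (asymmetric dimethylarginine), a methylated arginine that inhibits nitric oxide synthases, was given at 10 µM in medium without serum for 96 h (ADMA, 4 cultures). Serum-starved cells were kept in the same serum-free medium for 96 h (SS, 3 cultures), and control cells in medium with 10% fetal bovine serum (C, 3 cultures). The same line in DMEM with penicillin and streptomycin was used throughout, at 1 ADMA dose and 1 time, and ADMA in the presence of serum was not analysed here. The study asked how serum starvation alters transcription in these cells and how ADMA acts on the starved cells.

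The promoters of the 4 genes whose ADMA arrays all lay between the SS and the C arrays are shown first. That of IVL is set beside them, since its signal was lowest in SS and highest with ADMA. A2ML1 was also higher in SS than in C, but its ADMA and C arrays overlapped, and its promoter is not printed. RefSeq promoters were given for 7 of the 9 genes, on the build GRCh38.p14, with TGM1 and TGM2 named only. The 250 bases before each start site are printed from 5′ to 3′, and capitals mark the letters TGANTCA, the core that AP-1 factors (JUN and FOS dimers) recognize, and TATAAA, the TATA box.
SPRR1A, chr1:152983831-152984080, plus strand: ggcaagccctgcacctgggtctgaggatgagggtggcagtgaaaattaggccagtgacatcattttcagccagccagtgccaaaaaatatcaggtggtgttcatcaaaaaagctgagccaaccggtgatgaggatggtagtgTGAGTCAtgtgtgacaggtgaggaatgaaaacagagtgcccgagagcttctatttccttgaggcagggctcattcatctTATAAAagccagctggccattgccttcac
SPRR1B, chr1:153030953-153031202, plus strand: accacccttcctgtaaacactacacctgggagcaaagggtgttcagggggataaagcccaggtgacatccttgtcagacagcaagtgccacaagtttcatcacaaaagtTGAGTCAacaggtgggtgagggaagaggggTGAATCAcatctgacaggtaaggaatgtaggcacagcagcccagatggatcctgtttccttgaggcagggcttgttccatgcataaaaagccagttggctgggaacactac
SPRR3, chr1:153001499-153001748, plus strand: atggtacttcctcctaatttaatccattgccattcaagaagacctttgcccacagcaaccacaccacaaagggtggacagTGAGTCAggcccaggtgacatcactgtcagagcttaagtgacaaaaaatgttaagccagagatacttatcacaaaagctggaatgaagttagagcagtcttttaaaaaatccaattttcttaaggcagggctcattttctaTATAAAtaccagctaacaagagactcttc
ECM1, chr1:150507859-150508108, plus strand: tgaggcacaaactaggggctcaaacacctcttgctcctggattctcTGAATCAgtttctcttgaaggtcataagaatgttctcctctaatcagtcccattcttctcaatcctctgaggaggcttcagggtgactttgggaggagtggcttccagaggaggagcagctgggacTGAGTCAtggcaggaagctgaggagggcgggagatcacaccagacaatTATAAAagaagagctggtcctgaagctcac
IVL, chr1:152908296-152908545, plus strand: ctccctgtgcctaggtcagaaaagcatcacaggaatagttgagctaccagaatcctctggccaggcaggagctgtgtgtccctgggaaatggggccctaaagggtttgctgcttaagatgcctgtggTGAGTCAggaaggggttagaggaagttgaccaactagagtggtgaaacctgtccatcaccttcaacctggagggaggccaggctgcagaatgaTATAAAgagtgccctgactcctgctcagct

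Over the window of 250 bases before to 50 bases after the start, searched on both strands, TGANTCA was found in 6 of the 7 promoters, against 7.71% of 35116 RefSeq promoters of the same length. Counted back from the start site, it began at base -108 in SPRR1A, at -141 and -111 in SPRR1B, at -170 in SPRR3, at -197 in SPRR2A, at -123 in IVL and at -204 and -78 in ECM1. It was not among the letters of the A2ML1 windows. TATAAA began between bases -31 and -29 in 6 of the 7, in A2ML1 in 1 of its 2 windows, and was not found in SPRR1B. Anywhere in the window, it was found in 11.53% of all promoters. The motifs do not overlap each other. IVL carries both, as do SPRR1A, SPRR3 and ECM1. Whether either motif bears on the signals was not tested. The windows of SPRR1A and SPRR1B were 66.5% identical in a global alignment, and the other pairs among the SPRR genes, IVL and ECM1 were 49.6% to 56.2% identical. IVL, SPRR1A, SPRR3, SPRR1B and SPRR2A follow each other in that order on chromosome 1, which also holds ECM1, while A2ML1 lies on chromosome 12, TGM1 on 14 and TGM2 on 20.

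The signal is a MAS 5.0 intensity on a linear scale, scaled by the authors to the same trimmed mean on every array. The median signal still differed, from 91.9 to 98.1 on ADMA arrays, 87.5 to 90.7 on SS arrays and 60.7 to 73.1 on C arrays. Genes were tested where the mean of their main probe set reached the median of all probe sets (a signal of 76.3), which left 12342 genes, and a change was called where the adjusted p was below 0.01 and the fold reached 1.2. By that rule 29.5% of the tested genes were called in ADMA against SS (15.7% higher and 13.8% lower) and 57.6% in SS against C (30.3% higher and 27.3% lower). After centring each array on its median, 7.31% were higher and 17.0% lower in ADMA against SS, and 16.3% higher and 42.0% lower in SS against C. All 12 of a list of colon epithelial markers lay above background on all arrays, with summed signals of 157100 to 178500 in ADMA, 125600 to 144200 in SS and 92480 to 93560 in C. Beside the shares of all tested genes given above, 8 of the 12 were called higher and 1 lower in ADMA against SS. In SS against C, 5 were called higher and 3 lower (CDX1, CDX2 and GPA33), and these 3 were called higher in ADMA against SS. Median centring left 4 higher and 1 lower in ADMA against SS, and 3 higher and 6 lower in SS against C. Probe sets of 28S ribosomal RNA were brightest on SS arrays (1345 to 2014 for the 5′ set, against 795 to 1052 in ADMA and 501 to 634 in C), and the ratio of 3′ to 5′ signal of ACTB was 1.02 to 1.05 in ADMA, 1.13 to 1.23 in SS and 1.01 to 1.09 in C. The part of these differences in the results was not tested. In cultures, more cells that express a gene and more RNA per cell cannot be told apart.

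The envelope precursors SPRR1A, SPRR1B and SPRR3 and the secreted ECM1 were high in serum-starved cells, low in control cells and in between with ADMA, while IVL was lowest in serum-starved cells and highest with ADMA. The transglutaminases TGM1 and TGM2 lay near background and showed no direction. All 5 genes that passed the filter on low signal (SPRR1A, SPRR1B, SPRR3, ECM1 and A2ML1) were called higher in SS than in C, where 30.3% of all tested genes were. In ADMA against SS, 2 of the 5 were called lower, SPRR3 and ECM1, against 13.8% of all tested genes. In ADMA against C, 4 of the 5 were called higher, all but A2ML1, against 26.6%. The list was chosen by gene family with earlier results of these arrays known, the SS and C signals of SPRR1B among them, and main probe sets were selected on their mean log2 signal. Moreover 2 of the 5, SPRR1B and SPRR3, passed the filter through their ADMA and SS arrays. These counts are therefore a description and support nothing about the group. The comparisons of ADMA with SS and of SS with C share the 3 SS arrays and are not independent of each other.

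**Figure D1:**
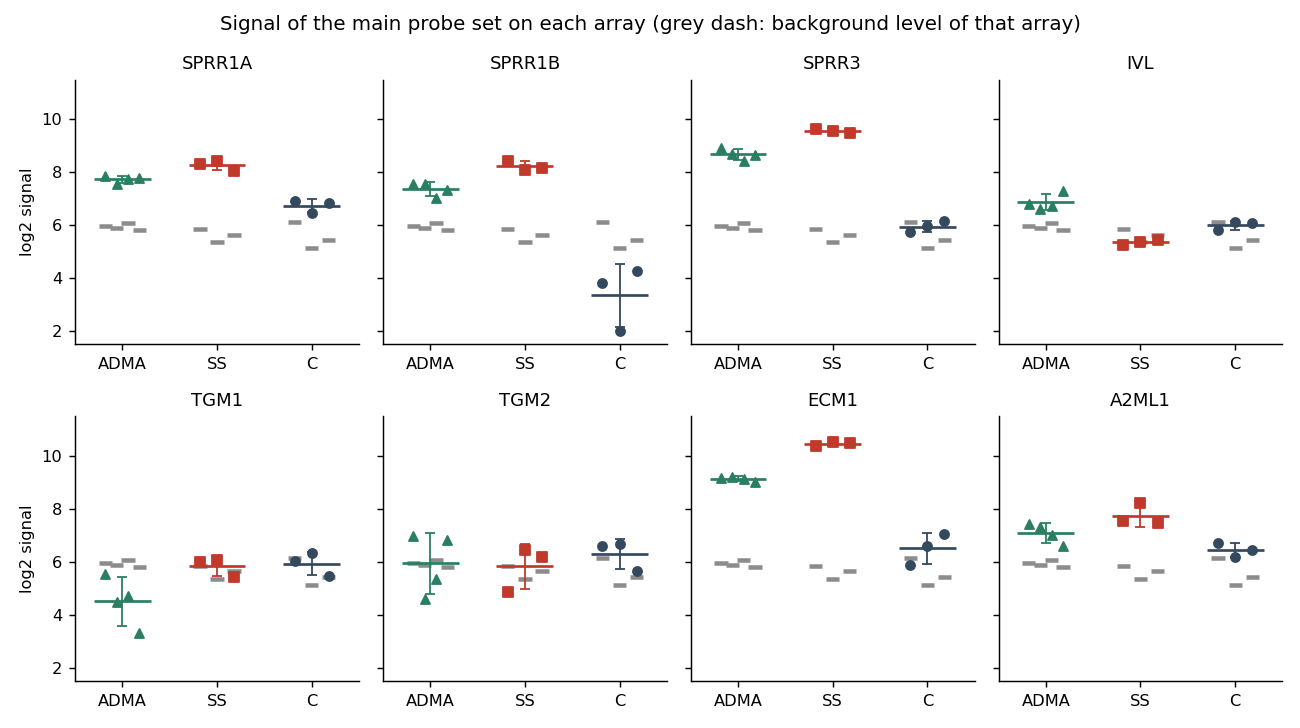
Log2 signal (vertical axis) of the main probe set of 8 genes on each ADMA, SS and C array, with lines at the group mean, bars of 1 SD and a grey dash at the background level of each array. SPRR1A, SPRR1B, SPRR3 and ECM1 have all 4 ADMA arrays between the SS and the C arrays, IVL has them above both, and TGM1 and TGM2 lie near the background level.

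SPRR1B, a small proline-rich precursor that bridges other envelope proteins, had signals of 191, 189.7, 130.5 and 160.2 on the ADMA arrays. On the SS arrays it had 345, 270.3 and 287, and on the C arrays 14.1, 3.99 and 19.0. The groups did not overlap, and all 3 C signals lay below the background level of their array, so only bounds hold against control cells. The background level is the 95th percentile of 27 Bacillus control probe sets of the array and ran from 35.0 to 70.2. SPRR1B was at least 6.33-fold higher in SS than in C and at least 3.51-fold higher in ADMA than in C. Between ADMA and SS the log2 difference was -0.85 (SE 0.43, limma adjusted p = 0.127), which did not pass, although all 4 ADMA arrays were below all 3 SS arrays (exact permutation p = 0.0286, two-sided, the smallest that 4 against 3 arrays allow). That SE carries the spread of the dim C arrays: with the ADMA and SS arrays fitted alone the adjusted p was 0.00269, and without C replicate 2, the dimmest, it was 0.00927. The SS signals of SPRR1B were among the earlier results known when the genes were chosen. The p values of SPRR1B for ADMA against SS are therefore a description.

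SPRR3, the proline-rich precursor found mainly in the mouth and oesophagus, had 490.1, 416, 340.2 and 402 on the ADMA arrays. The SS arrays had 806, 754 and 708, and the C arrays 53.0, 62.4 and 70.7. The 3 groups lay apart from each other, and 2 of 3 C arrays were above background. SPRR3 fell in ADMA against SS by 0.89 on the log2 scale (SE 0.15, limma adjusted p = 2.97e-04), to 0.541 times its SS level. Its signal was higher than in C by 3.61 in SS (SE 0.16) and by 2.73 in ADMA (SE 0.15). No p is given for these, since SPRR3 passed the filter on low signal through its ADMA and SS arrays and its C mean of 5.95 on the log2 scale lay below it.

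The second SPRR3 probe set, 232082_x_at, was below the filter, with 120.4, 94.1, 98.2 and 146 on ADMA arrays and 161, 137 and 90.7 on SS arrays. Its C signals of 4.11, 6.65 and 6.74 were all below background. It was at least 2.66-fold higher in SS than in C and at least 2.39-fold higher in ADMA than in C. Between ADMA and SS its arrays overlapped, at a log2 difference of -0.16 (exact permutation p = 0.6). When the 2 probe sets were averaged, the ADMA against SS difference of SPRR3 was -0.52 and lost its call (limma adjusted p = 0.0794).

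SPRR1A, the closest relative of SPRR1B in the family, was read by a pair of probe sets of unlike size of change. The main one, 214549_x_at, had 233, 188, 215 and 223 on the ADMA arrays. It had 319, 344 and 265 on the SS arrays and 121, 88.1 and 115 on the C arrays. The groups did not overlap. SPRR1A by this probe set rose in SS against C by 1.52 on the log2 scale (SE 0.19, limma adjusted p = 3.51e-06) and in ADMA against C by 1.002 (SE 0.17, adjusted p = 1.43e-04). In ADMA against SS it differed by -0.52 (SE 0.17, adjusted p = 0.0244) and did not pass.

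The second SPRR1A probe set, 213796_at, had 275, 285, 218 and 258 on the ADMA arrays. It had 1000.0, 858 and 804 on the SS arrays and 8.71, 45.0 and 6.33 on the C arrays, where 1 of 3 lay above background. These groups lay further apart than those of the main probe set. A fit over 27304 probe sets called 22.7% of them in ADMA against SS, 52.7% in SS against C and 47.1% in ADMA against C. In it SPRR1A by this probe set fell by 1.78 with ADMA (SE 0.48, limma adjusted p = 0.00993). Against C the log2 differences of this probe set were 4.10 in SS and 2.33 in ADMA with dim signals raised to the background level. They are given with no p, since the probe set passed the filter through its ADMA and SS arrays. By the signals as deposited they were 6.03 and 4.25.

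The choice between the SPRR1A probe sets rested on a small margin, a mean log2 signal of 7.60 for the main and 7.27 for the second. An ID ending in _x_at marks probes that also match other transcripts. SPRR1A and SPRR1B are closely related copies, and whether signal of 214549_x_at comes from both was not tested. On C arrays it had 88.1 to 121, against 6.33 to 45.0 for 213796_at and 3.99 to 19.0 for the SPRR1B probe set. The size of the SPRR1A change is uncertain. Without probe sets of that kind, SPRR1A fell in ADMA against SS (limma adjusted p = 0.00679).

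**Figure D2:**
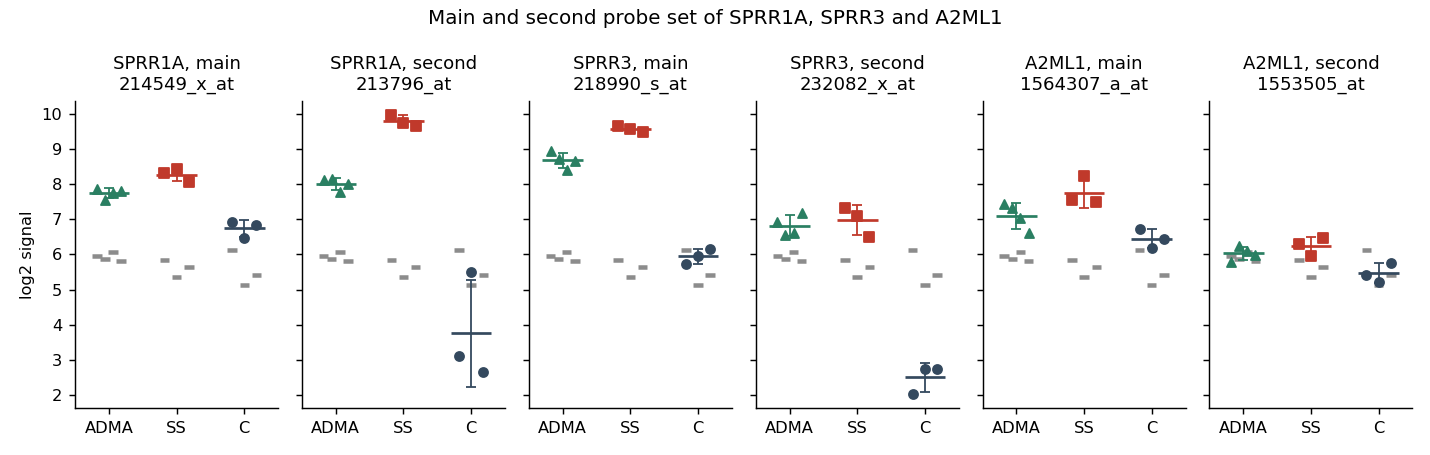
Log2 signal (vertical axis) of the main and the second probe set of SPRR1A, SPRR3 and A2ML1 on each ADMA, SS and C array, with group means, bars of 1 SD and grey dashes at the background level. The second SPRR1A probe set reaches 1000.0 in SS and is as low as 6.33 in C, while the main one stays between 88.1 and 344.

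IVL, the long rod-like precursor laid down early under the membrane, ran against the SPRR genes. Its ADMA arrays had 113, 97.9, 106 and 158. The SS arrays had 37.7, 41.3 and 43.4, and the C arrays 55.9, 68.7 and 68.4. All 4 ADMA arrays were above background and above every array of the other groups, all 3 SS arrays were below background, and 2 of 3 C arrays were above it. Since the SS signals give only an upper limit, IVL was at least 2.37-fold higher in ADMA than in SS (exact permutation p = 0.0286, the smallest possible). All 3 SS signals were below all 3 C signals (exact permutation p = 0.1, the smallest that 3 against 3 arrays allow). No bound is given for SS against C, since C replicate 1 was itself below background. With dim signals raised to the background level that log2 difference was -0.49.

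IVL fell just below the filter, at a mean log2 signal of 6.15, and SPRR1B just above it, at 6.42. With no filter the fitted log2 difference of IVL in ADMA against SS was 1.52 and was called, in a fit that called 17.2% of 19775 genes in this comparison. That value uses SS signals below background, and with dim signals raised to the background level it was 1.25. The same fit gave -0.65 for SS against C (SE 0.33, adjusted p = 0.141) and 0.87 for ADMA against C (SE 0.31, adjusted p = 0.0389), where it called 35.5% and 30.9% of genes but not IVL. After centring each array on its median these were -1.04 and 0.36.

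TGM1, the membrane-bound transglutaminase of keratinocytes, had 46.6, 22.1, 26.0 and 9.88 on the ADMA arrays, all below background. It had 63.3, 68.0 and 42.9 on the SS arrays and 64.8, 79.9 and 44.5 on the C arrays, with 2 of 3 above background in each. The ADMA and SS arrays overlapped (exact permutation p = 0.0857), and the log2 difference of -1.33 came to 0.02 when dim signals were raised to the background level. SS and C differed by -0.11 (SE 0.56 with no filter). No direction can be given for TGM1 at these signals.

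TGM2, the widely expressed tissue transglutaminase, had 127, 24.0, 41.1 and 113 on the ADMA arrays by its main probe set, 201042_at. It had 29.3, 87.5 and 72.8 on the SS arrays and 96.9, 101 and 50.2 on the C arrays. All groups overlapped. With no filter the log2 differences were 0.10 for ADMA against SS (SE 0.59, limma adjusted p = 0.937) and -0.47 for SS against C (SE 0.63, adjusted p = 0.622). Each difference was smaller than its SE, so no direction can be given for TGM2 either. The other 3 TGM2 probe sets had signals of 5.41 to 80.9 in ADMA, 6.89 to 60.9 in SS and 5.87 to 39.0 in C, and each was below background on 9 of 10 arrays.

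ECM1, a secreted glycoprotein of skin and other matrices, had 584, 591, 569 and 513 on the ADMA arrays. It had 1340.0, 1484 and 1447 on the SS arrays and 59.8, 96.9 and 131 on the C arrays. Replicates lay close together in ADMA and SS, and the 3 groups were far apart, with 2 of 3 C arrays above background. ECM1 fell in ADMA against SS by 1.34 on the log2 scale (SE 0.19, limma adjusted p = 7.02e-05), to 0.396 times its SS level. It rose in SS against C by 3.96 (SE 0.21, adjusted p = 4.12e-10), or 15.6-fold, and in ADMA against C by 2.63 (SE 0.19, adjusted p = 2.75e-08). These differences kept their direction and call in all alternatives and with each array left out.

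A2ML1, a secreted protease inhibitor of the alpha-2-macroglobulin family made in the upper epidermis, had 174, 160.4, 130.4 and 97.8 on the ADMA arrays. It had 185, 302 and 178 on the SS arrays and 106, 72.5 and 86.9 on the C arrays. The highest ADMA array lay just below the lowest SS array, and the lowest ADMA array below the highest C array. A2ML1 rose in SS against C by 1.30 on the log2 scale (SE 0.28, limma adjusted p = 7.93e-04). It differed by -0.65 in ADMA against SS (SE 0.26, adjusted p = 0.0583) and by 0.65 in ADMA against C (SE 0.26, adjusted p = 0.0423), neither of which passed. Without SS replicate 2, the brightest, the ADMA against SS difference was -0.40, and after median centring that of ADMA against C was 0.15. The second A2ML1 probe set, 1553505_at, was below the filter and differed by -0.21 in ADMA against SS and by 0.78 in SS against C.

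**Figure D3:**
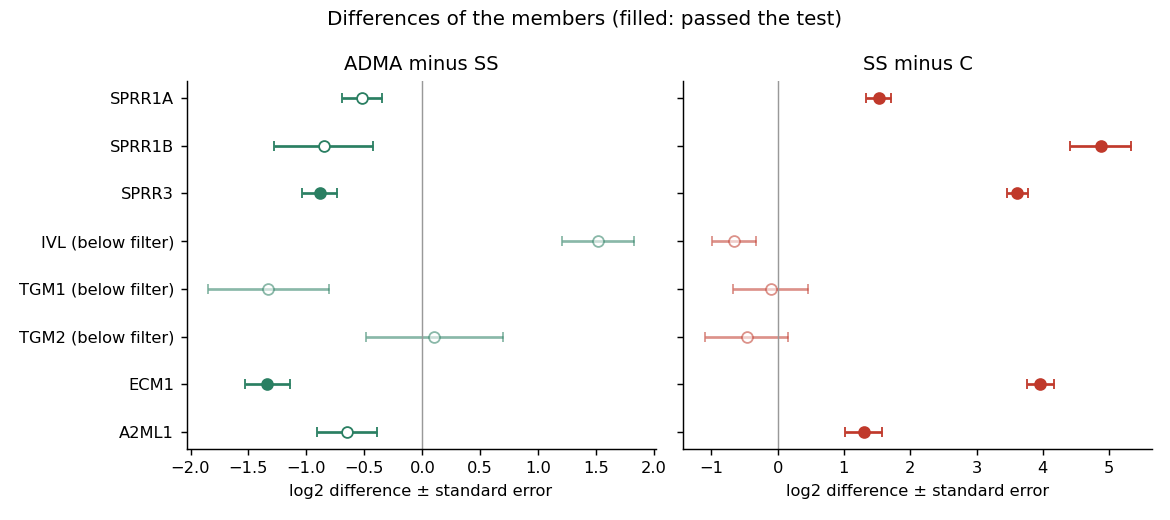
Log2 difference with its standard error (horizontal axis) for 8 genes, ADMA minus SS on the left and SS minus C on the right, with filled points where the test was passed. Genes below the filter are drawn pale, with the standard error of the fit without a filter, and are left unfilled since they were not tested with the others; IVL is the gene with the highest value on the left (1.52) and the lowest on the right (-0.65).

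Over the 5 tested genes the median log2 difference was -0.85 in ADMA against SS, 3.61 in SS against C and 2.63 in ADMA against C. Over all 12342 tested genes it was 0.03, 0.07 and 0.07. No array overlapped between ADMA and SS in any of the 5, each lower in ADMA, against 21.9% of all tested genes, or between SS and C, each higher in SS, against 37.9%. In 4 of the 5 all ADMA arrays lay between the SS and the C arrays, as they did in 22.7% of all tested genes. As with the counts of calls above, the choice of the genes and the filter bear on these medians and shares, which are a description and support nothing about the group. Centring each array on its median lowered every log2 difference by 0.12 in ADMA against SS, 0.39 in SS against C and 0.51 in ADMA against C. It kept the direction of all 5 genes. SPRR1A was then also called lower in ADMA against SS (-0.64, limma adjusted p = 0.00952), as it was after quantile normalization (-0.59, adjusted p = 0.0085), and centring left it without its call in ADMA against C (0.50, limma adjusted p = 0.022).

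The patterns most like each gene were found as the smallest root mean square difference between mean-centred log2 signals over the 10 arrays. Nearest to SPRR3 was DSG3, a desmosomal cadherin of stratified epithelia (0.14), followed by the amino acid transporter SLC6A20 (0.19). Nearest to ECM1 was SPRR3 (0.29), followed by CPEB2 (0.32), which binds the polyadenylation element of messenger RNAs. SPRR1B had no close neighbour, with RUSC1-AS1 at 0.53 and the CDK inhibitor CDKN2B at 0.55. SPRR1A was nearest to MYSM1 and PLEKHG5 (0.13 each), and A2ML1 to C11orf54 and TUBE1 (0.20 each).

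Few genes of a list of other envelope precursors and related genes were bright enough to be tested. The envelope proteins PI3, periplakin and envoplakin were placed in other lists and are given below. Of the 39 genes of this list, 20 had a probe set and 5 were tested. Among these 5, TCHH alone was called in any comparison among ADMA, SS and C. TCHH, trichohyalin of hair follicle sheath, had 149, 208, 134 and 129 on the ADMA arrays, 399.99, 405 and 342 on the SS arrays and 7.56, 28.6 and 29.1 on the C arrays. All C signals were below background, and TCHH, which passed the filter through its ADMA and SS arrays, was at least 8.06-fold higher in SS than in C. Its difference of -1.32 in ADMA against SS did not pass (SE 0.40, adjusted p = 0.0147), but was called after median centring (adjusted p = 0.00448).

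Filaggrin (FLG) and repetin (RPTN), relatives of trichohyalin that lie below the filter, are named after their values were seen. FLG had 34.8, 25.9, 29.8 and 4.91 on ADMA arrays, 101, 110.1 and 72.6 on SS arrays and 5.43, 23.4 and 16.2 on C arrays. It was at least 1.53-fold lower in ADMA than in SS and at least 1.97-fold higher in SS than in C. RPTN had 34.7, 4.45, 5.83 and 29.6 on ADMA arrays, 156, 190.4 and 184 on SS arrays and 8.83, 8.22 and 56.0 on C arrays, and was at least 2.89-fold lower in ADMA than in SS. Both were above background on the 3 SS arrays and below it on the 4 ADMA arrays. CNFN, of the same list, also below the filter and named after its values were seen, went the other way. It had 75.1 to 120.4 on C arrays, all above background, 15.0 to 34.7 on SS arrays, all below it, and 42.3 to 110.2 on ADMA arrays. Its log2 differences, not tested, were -1.90 in SS against C and 1.45 in ADMA against SS.

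None of the 7 other transglutaminase family genes passed the filter. The brightest, TGM3, the epidermal transglutaminase that works in the cytosol, had 118, 104, 92.6 and 107 on ADMA arrays, 67.9, 63.6 and 67.5 on SS arrays and 43.9, 71.1 and 28.3 on C arrays. Its log2 differences, not tested, were 0.66 in ADMA against SS and 0.57 in SS against C.

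Desmosomal proteins and the plakins that anchor the envelope to the cell border were mostly higher in SS than in C. Of 15 listed and 12 tested, 1 was called higher and 3 lower in ADMA against SS, where 15.7% and 13.8% of all tested genes were. In SS against C 11 were called higher and 1 lower, where 30.3% and 27.3% of all tested genes were. The medians were -0.04 and 1.01. Median centring left 0 higher and 3 lower in ADMA against SS (7.31% and 17.0% of all tested genes) and 7 higher and 1 lower in SS against C (16.3% and 42.0%). DSG4, a desmosomal cadherin, fell in ADMA against SS by 0.61 (SE 0.14, limma adjusted p = 0.00318) and rose in SS against C by 3.86 (SE 0.15). DSG3 fell by 0.69 (SE 0.09, adjusted p = 4.48e-05) and rose by 3.42 (SE 0.10) in the same comparisons.

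Among the other desmosomal genes DSC2, also a cadherin, rose in SS against C by 2.27 (SE 0.09) and differed by -0.21 in ADMA against SS (limma adjusted p = 0.0441), which became a call after quantile normalization (-0.33). Periplakin (PPL) and envoplakin (EVPL), scaffold proteins of the envelope named after their values were seen, rose in SS against C by 1.12 (SE 0.13) and 1.04 (SE 0.14), also after median centring. Their differences in ADMA against SS were -0.31 and 0.03 and did not pass. The gene called lower in SS was plakophilin PKP2, at -0.95 (SE 0.12), and its rise of 0.43 in ADMA against SS lost its call after median centring.

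**Figure D4:**
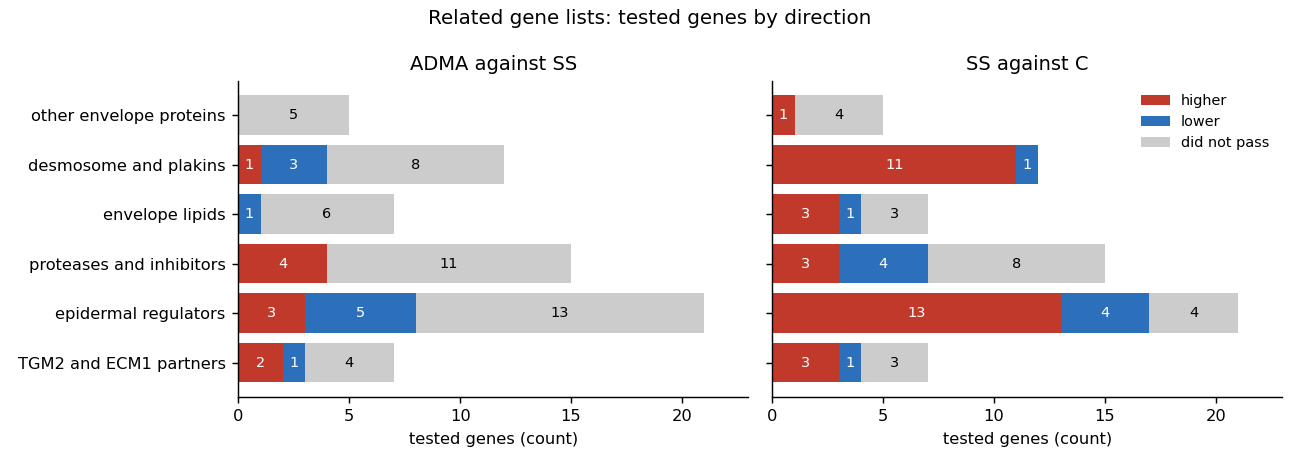
Number of tested genes (horizontal axis) called higher, called lower or not called in 6 related gene lists, ADMA against SS on the left and SS against C on the right. Of the 12 desmosome and plakin genes 11 were higher in SS than in C, and of the 21 epidermal regulators 13 were.

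Genes for the lipids bound to the envelope were called in both directions. Of 7 tested, 0 were called higher and 1 lower in ADMA against SS (15.7% and 13.8% of all tested genes), and 3 higher and 1 lower in SS against C (30.3% and 27.3%). The median in SS against C was 0.16 as deposited, -0.21 after quantile normalization and -0.23 after median centring. STS, the steroid sulfatase lost in X-linked ichthyosis, had 311, 278, 292 and 197 on ADMA arrays, 702, 693 and 609 on SS arrays and 639.7, 830.2 and 821 on C arrays. STS fell in ADMA against SS by 1.33 (SE 0.15, limma adjusted p = 8.73e-06), and its SS against C difference of -0.19 passed only after median centring (-0.57). FA2H, a fatty acid hydroxylase, rose in SS against C by 1.28 (SE 0.07), and NIPAL4, mutated in an inherited ichthyosis, was lower in SS at -1.17 (SE 0.36), having passed the filter through its C arrays. FA2H differed by -0.23 in ADMA against SS, a call after median centring (-0.35).

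Proteases and protease inhibitors of the cornified layer were called in both directions. Of 15 tested, 4 were called higher and 0 lower in ADMA against SS (15.7% and 13.8% of all tested genes), and 3 higher and 4 lower in SS against C (30.3% and 27.3%), with medians of 0.11 and -0.16. SPINK6, an inhibitor of kallikreins, had 4927, 5163, 4064 and 6257 on ADMA arrays, 1505, 1421 and 1281 on SS arrays and 4250.5, 4151 and 4007 on C arrays. It rose in ADMA against SS by 1.85 (SE 0.11, limma adjusted p = 2.06e-08) and fell in SS against C by 1.56 (SE 0.12). PI3, the elastase inhibitor elafin that is itself joined to the envelope, had 1047, 1215, 1447 and 1560.2 on ADMA arrays, 686, 614 and 510.0 on SS arrays and 2216, 2250.2 and 2065 on C arrays. It rose by 1.12 in ADMA against SS (SE 0.13, adjusted p = 8.29e-06) and fell by 1.86 in SS against C (SE 0.14). The membrane serine protease PRSS8, with a C mean below the filter, was higher in SS than in C by 1.89 (SE 0.28) and differed by -0.47 in ADMA against SS (adjusted p = 0.17).

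Among 21 tested regulators of epidermal differentiation, 3 were called higher and 5 lower in ADMA against SS (15.7% and 13.8% of all tested genes), and 13 higher and 4 lower in SS against C (30.3% and 27.3%), with medians of -0.02 and 0.65. Median centring left 7 higher and 4 lower in SS against C (16.3% and 42.0% of all tested genes). As deposited, the 4 called lower in SS than in C were VDR (-0.84), EHF (-0.65), CEBPA (-0.62) and OVOL2 (-0.41). PRDM1, a repressor expressed in the granular layer, had 1233, 1149, 994 and 919 on ADMA arrays, 2275, 1970.3 and 2085 on SS arrays and 409.6, 365 and 407 on C arrays. PRDM1 fell in ADMA against SS by 0.98 (SE 0.10, limma adjusted p = 3.65e-06) and rose in SS against C by 2.42 (SE 0.11). GRHL3, which activates TGM1 in mouse skin, fell in ADMA against SS by 1.35 (SE 0.24, adjusted p = 3.38e-04) and rose in SS against C by 2.08 (SE 0.25), while TGM1 itself stayed near background.

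The list held 7 genes of AP-1, whose core letters were marked in the promoters, and 6 were tested. Whether these genes have a part in the signals of the promoters shown was not tested. All 6 (FOS, FOSL1, FOSL2, JUN, JUNB and JUND) were called higher in SS than in C, by 0.51 to 1.37 on the log2 scale, against 30.3% of all tested genes. That count was 4 after quantile normalization and 3 after median centring, against 27.3% and 16.3% of all tested genes. In ADMA against SS their differences ran from -0.27 to 0.33 and none was called by limma, against 1 (JUND, lower) with either normalization. JUN had 5064, 4250.0, 4972 and 5682 on ADMA arrays, 4120.5, 4188 and 5101 on SS arrays and 1500.0, 1620 and 2078 on C arrays, so that ADMA and SS overlapped and both lay above C. Its difference was 0.16 in ADMA against SS (adjusted p = 0.294) and 1.37 in SS against C (SE 0.12, adjusted p = 1.37e-07).

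Partners of TGM2 and ECM1 at the cell surface and in the matrix were also called in both directions. Of 7 tested, 2 were called higher and 1 lower in ADMA against SS (15.7% and 13.8% of all tested genes), and 3 higher and 1 lower in SS against C (30.3% and 27.3%). Fibronectin (FN1), which TGM2 binds, had 516, 468, 437 and 432 on ADMA arrays, 99.1, 73.1 and 117 on SS arrays and 20.7, 80.2 and 60.3 on C arrays. FN1 passed the filter through its ADMA arrays and was higher in ADMA than in SS by 2.29 (SE 0.36), and its difference of 1.03 in SS against C did not pass (limma adjusted p = 0.0276). The heparan sulfate proteoglycan SDC4 fell in ADMA against SS by 0.46 (SE 0.09, adjusted p = 6.02e-04) and rose in SS against C by 1.31 (SE 0.09). The receptor LRP1 rose in SS against C by 1.31 (SE 0.24), and its ADMA against SS difference of -0.78 (adjusted p = 0.0121) was called after either normalization.

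Markers of keratinocytes gave no even picture beside these genes. Of a list of 12, 10 had a probe set and 4 were tested, of which 0 were called higher and 2 lower in ADMA against SS (15.7% and 13.8% of all tested genes), and 3 higher and 0 lower in SS against C (30.3% and 27.3%). The 2 genes lower in ADMA were DSG3, described above, and the desmosomal cadherin DSC3, which fell in ADMA against SS by 0.38 (SE 0.09, limma adjusted p = 0.00337) and rose in SS against C by 0.99 (SE 0.10). KRT15 was the third gene higher in SS. The list had summed signals of 5833 to 6854 in ADMA, 7426 to 8269 in SS and 3708 to 4437 in C. Of the 6 genes not tested, FLG is given above, and KRT5, KRT14, KRT1, LORICRIN and DSG1 were below background on at least 7 of 10 arrays, and the highest signal of any of them was 86.9. KRT15, a basal keratin, had 170, 204, 230.2 and 254 on ADMA arrays, 272, 250.3 and 359 on SS arrays and 35.5, 44.8 and 20.6 on C arrays. It passed the filter through its ADMA and SS arrays, and 1 of its 3 C signals was above background. KRT10 had 2824 to 4108 on all arrays and was not called in ADMA against SS or SS against C. Fibroblast markers summed to 2688 to 2989 in ADMA, 2295 to 2407 in SS and 1496 to 1628 in C. Among them VIM had 1599 to 2105 in ADMA, 1301 to 1387 in SS and 528 to 584 in C. COL1A1 was not called in any comparison, and COL3A1 was highest in C (120 to 233, against at most 42.1 in ADMA and 16.2 in SS). Endothelial markers summed to 386 to 609 in ADMA, 354 to 573 in SS and 398 to 430 in C. Leukocyte markers summed to 1818 to 2448 in ADMA, 4331 to 4993 in SS and 746 to 1039 in C, most of it LYZ, while PTPRC, which marks nearly all leukocytes, was at most 48.3. The part of these cell types in the results was not tested.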

How the data were processed

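RNA of 10 LoVo cultures (ADMA 4, SS 3, C 3, grouped by the labels) was hybridized to Affymetrix HG-U133 Plus 2.0 arrays. The deposited values are intensities that the authors computed with MAS 5.0, on a linear scale, with a 2% trimmed mean of 500.06 to 500.07 on every array. Signals were taken to log2 with no pseudocount. Of the probe sets, 41091 had 1 gene symbol and 1801 several in the platform annotation, and those with several were left out. For each gene the probe set with the highest mean log2 signal was kept. All 10 arrays were fitted by limma 3.58.1 in R 4.3.3 (lmFit, eBayes with trend), with Benjamini-Hochberg adjustment over all tested genes and the thresholds that the methods give for SAM, 0.01 and 1.2-fold. SAM itself was not run, since it rests on permuted labels. The fit was tested on simulated data. Bounds take the mean log2 of the bright group against that of the dim group at the background level.

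The genes, lists and background level were chosen with earlier results of these data known. Within lists, the 3 called genes with the largest difference were named, or the brightest where none was called, beside all listed envelope genes, 2 nearest patterns each and the marker genes. The number of arrays limits the precision. The labels call the replicates biological, and no day or batch of culture is given in the sources used here. Same-numbered cultures did not deviate together (correlations of -0.07 to 0.10 over 9 pairs). Alternatives were quantile normalization, median centring, no filter, a pseudocount of 16, dim signals raised to background, averaged probe sets, no _x_at probe sets, arrays of the compared groups alone, no trend, array weights, a replicate block and each array left out. Promoters were read with Python 3.11.15 and aligned with Biopython 1.88.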

Additional observations from a re-analysis of the deposited data

How the results depend on the processing

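Depth is not defined for arrays, and signals near the background level limit IVL, TGM1, TGM2 and the C side of SPRR1B. Quantile normalization gave IVL -1.04 in SS against C and 0.38 in ADMA against C, and SPRR1A -0.59 in ADMA against SS, then called. Median centring gave 902 genes higher in ADMA against SS (1935 as deposited), 2014 higher and 5184 lower in SS against C (3738 and 3372), and 1209 higher and 6101 lower in ADMA against C (3284 and 2859). The calls split as 7.31% higher and 17.0% lower, 16.3% and 42.0%, and 9.80% and 49.4% in these comparisons. It also gave IVL -1.04 in SS against C and 0.36 in ADMA against C, and SPRR1A -0.64 in ADMA against SS, then called, and 0.50 in ADMA against C, no longer called. In ADMA against SS, IVL was called with no filter (1.52), and was 1.23 with a pseudocount of 16 and 1.25 with dim signals raised to background. With signals so raised TGM1 was 0.024 in ADMA against SS and -0.046 in ADMA against C, and another SPRR1A probe set was the brighter, at -1.78 and called. The same probe set stood for SPRR1A without _x_at probe sets (-1.78). Averaged probe sets gave SPRR1A -1.15, called, SPRR3 -0.52, no longer called, and 942 genes lower in ADMA against SS (1704 with main probe sets). With the compared groups alone SPRR1B was called in ADMA against SS (-0.85). The causes of the other moves were not tested.

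With each array left out in turn, SPRR1A ran from -1.78 to -0.44 in ADMA against SS, and was called, by its second probe set, without C replicate 1 or C replicate 3. SPRR1B ran from -0.93 to -0.74 in that comparison and was called without C replicate 2. IVL ran from 1.37 to 1.60 and, without SS replicate 1, passed the filter and was called at 1.46. It passed there through its ADMA arrays (mean log2 signal 6.87, against 5.35 in SS and 6.00 in C with all arrays), so that call is a description only. SPRR1B ran from 4.19 to 5.32 in SS against C and from 3.34 to 4.47 in ADMA against C, and fell below the filter without SS replicate 1 or SS replicate 3, so that it had no test there. A2ML1 ran from -0.78 to -0.40 in ADMA against SS and was never called. The replicate number as a block gave ECM1 -1.29, SPRR3 -0.88, SPRR1A -0.54, SPRR1B -0.84 and A2ML1 -0.49 in ADMA against SS, and changed no call of a tested gene in any of the 3 comparisons. No sample of the ADMA group stood apart from the others by Dixon's test in these genes, and groups of 3 were not tested.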
